A study of Mus musculus with 15 samples.

Results

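The genes described here code for the cytosolic translation initiation factors (eIFs) and elongation factors (eEFs). They were chosen by symbol alone, as every gene in the count tables whose symbol begins with Eif and a digit from 1 to 6, or with Eef and 1 or 2, without the eIF2 kinases and without entries named as pseudogenes. This gave 55 of 17493 genes, and the rule itself uses no measured value. Of the 55, 54 passed the low-count filter and were tested, and the remaining gene, Eif3j2, had at most 2 counts in any library.

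The libraries came from CD8+ OT-I T cells of the spleen and lymph nodes of female OT-1 mice (C57BL/6-Tg(TcraTcrb)1100Mjb/Crl), which carry a transgenic T cell receptor for an ovalbumin peptide in every group, the controls included. The 5 groups, of 3 libraries each, were cells left untreated and taken at 0 h, and cells that received either of 2 stimuli and were taken after 8 h or 22 h. Immunofilaments (IF), given at 5 ng/ml, are filaments that carried SIITFEKL-loaded MHC together with IL-2. The other stimulus was a set of 20000 dendritic cells (DC) grown with Flt-3Ligand and pulsed with SIITFEKL, added to 50000 T cells. Viable CD8+ CD103- cells were sorted after culture. There was no unstimulated group at 8 h or 22 h, so time in culture and stimulation cannot be told apart in any comparison with the 0 h cells, and all 4 of those comparisons use the same 3 control libraries.

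Libraries held 2892874 to 19806730 counts, and the 55 factors took 2.02% to 2.68% of them. All 8 CD8 T cell markers checked had counts in every group, with sums of 9216 to 10047 counts per 1000000 (CPM) in the controls and 5021 to 7100 after stimulation, without overlap. Dendritic cell markers summed to 559 to 1329 in unstimulated libraries, 211 to 483 at IF 8 h and 391 to 1266 in the other groups, and their part in the comparisons with unstimulated cells was not tested. B cell markers summed to 4.92 to 36.3. IF 22 h replicates 2 and 3 stood apart from the other 13 libraries: mitochondrial ribosomal RNA was 0.179% and 0.146% of their counts against 1.82% to 4.49% elsewhere. Replicate 2 of DC 8 h and of DC 22 h also stood apart, in the level of many initiation factors.

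Translation of most cellular mRNAs starts when eIF4E binds the 5′ cap and, with the scaffold eIF4G and the RNA helicase eIF4A, brings in a small ribosomal subunit that carries eIF1, eIF1A, eIF3, eIF5 and the initiator tRNA held by eIF2. Joining of the large subunit depends on eIF5B, and elongation is then driven by eEF1A, which delivers aminoacyl tRNAs, and eEF2, which moves the ribosome along the mRNA. Resting T cells translate little and raise protein synthesis after antigen recognition. Messages for many elongation factors and ribosomal proteins begin with a pyrimidine tract (the 5′ terminal oligopyrimidine motif) through which mTORC1 signalling controls how well they are translated.

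Most factors did not pass the test in any comparison, and those that did in edgeR were 8 genes, namely Eef1a1, Eef1b2, Eef2, Eif1, Eif4a2, Eif4e3, Eif4ebp1 and Eif5a2. Against unstimulated cells, 3 of 54 factors passed an adjusted p of 0.05 at IF 8 h, all lower (5.56%, where 7.76% of all 10831 tested genes passed, 3.04% higher and 4.72% lower). At DC 8 h 3 passed, 2 lower and 1 higher, where 6.82% of genes passed, 2.75% higher and 4.07% lower. After 22 h of IF 4 passed, 2 lower and 2 higher (7.41%, against 6.08% of genes, 2.63% higher and 3.44% lower). After 22 h of DC 4 passed, all lower, where 7.76% of genes passed, 3.41% higher and 4.35% lower. The shares of factors past the threshold were near those of all genes in all 4 comparisons. The factors whose normalised values did not overlap those of the controls took a larger share than genes in general at 8 h. With IF at 8 h they numbered 12 higher (22.2%, against 14.2% of genes) and 14 lower (25.9%, against 16.4%), and with DC 13 higher (24.1%, against 13.0%) and 14 lower (25.9%, against 15.2%). At 22 h they numbered 8 higher (14.8%, against 15.7%) and 6 lower (11.1%, against 14.7%) with IF, and 7 higher (13.0%, against 12.8%) and 9 lower (16.7%, against 14.2%) with DC. These shares are a description with no test.

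**Figure D1:**
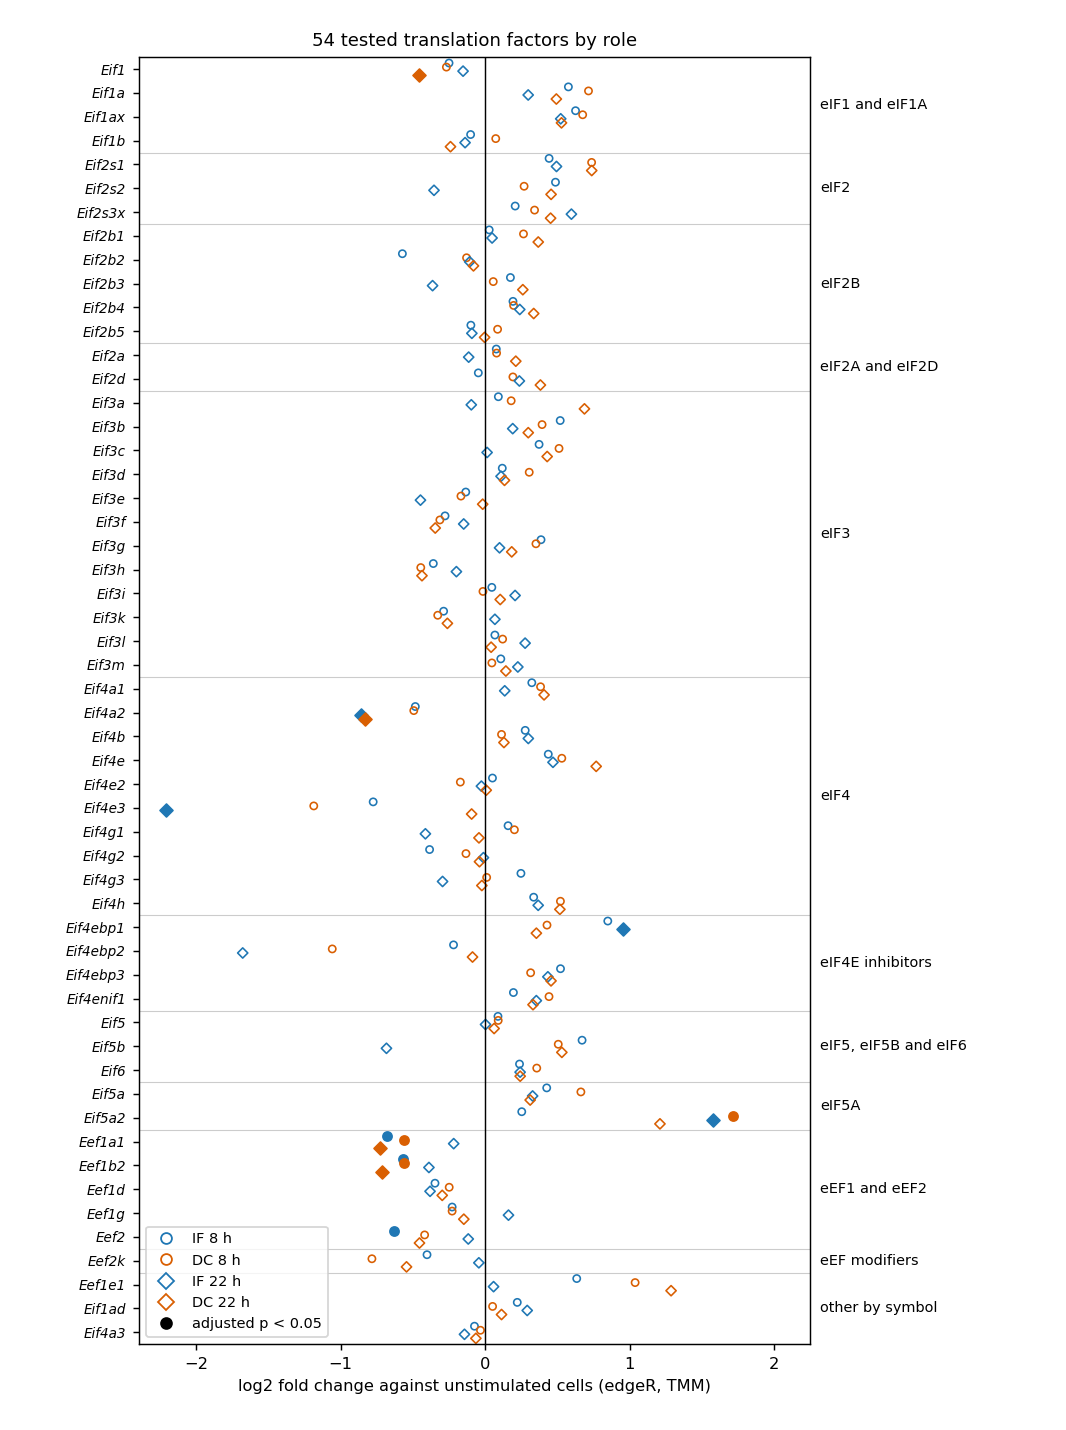
Log2 fold change of each of the 54 tested factors (rows, grouped by role) against unstimulated cells, for IF (blue) and DC (orange) at 8 h (circles) and 22 h (diamonds), with filled symbols past an adjusted p of 0.05. Filled symbols on the left are Eef1a1, Eef1b2, Eef2, Eif1, Eif4a2 and Eif4e3, and on the right Eif5a2 and Eif4ebp1; most of the other symbols lie between -1 and 1.

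The direction of these small differences depends on how libraries are scaled. The values above and below use TMM factors, which put the median log2 fold change of all tested genes at 0.01 to 0.04 in the 4 comparisons. Scaled by library size alone, that median lay at 0.26 and 0.22 for IF (8 h and 22 h) and at 0.30 and 0.37 for DC. The factors past the threshold then numbered 4 higher and 1 lower for IF at 8 h, 4 and 2 for IF at 22 h, 6 and 0 for DC at 8 h, and 12 and 3 for DC at 22 h. Of all 10831 tested genes 1113, 838, 1079 and 1586 passed in the same order, against 840, 658, 739 and 840 with TMM. All changes are therefore stated relative to the median gene. Unless a setting is named, a factor is said to have passed or not in the edgeR test with TMM factors, the low-count filter and all 15 libraries. Other settings added factors that did not pass there. Against unstimulated cells, library size alone added Eef1e1, Eif1ax, Eif2s1, Eif2s3x, Eif3a, Eif3c, Eif3d, Eif3m, Eif4b, Eif4e, Eif4ebp3 and Eif4h, all higher. Leaving out the low-count filter added Eef1e1, Eif1a, Eif1ax, Eif2s1, Eif3a, Eif4e and Eif5a as higher, Eif4ebp2 as lower, and Eif5b as higher at IF 8 h and lower at IF 22 h. A fit of only the 2 groups compared added Eif1ax, Eif2s1, Eif2s2, Eif2s3x, Eif3a, Eif3b, Eif5a and Eif5b as higher and Eif4ebp2 and Eif4g2 as lower.

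The elongation factors Eef1a1, Eef1b2 and Eef2 gave most of the calls in the lower direction. Eef1a1 (eEF1A, chr9:78478449-78489151, minus strand, mm10) and Eef1b2 (a guanine nucleotide exchange factor for eEF1A, chr1:63176825-63180486, plus strand) were lower with DC at both times and with IF at 8 h. Eef2 (eEF2, the translocase, chr10:81176631-81182498, plus strand) was lower at IF 8 h. Their start sites are shown because the pyrimidine tract lies at the first bases of the mRNA. The search used here is looser, since a run may begin before or after the annotated start. A run is therefore not the motif itself. Each line gives 30 bases before and 20 bases from the RefSeq start (GRCm38.p6, on the strand of the gene), with capitals for a run of at least 7 C or T letters that starts with C and lies within 30 bases of the start. The positions are chr9:78481705-78481754 on the minus strand for Eef1a1, chr10:81176601-81176650 on the plus strand for Eef2 and chr1:63176801-63176850 on the plus strand for Eef1b2.
Eef1a1: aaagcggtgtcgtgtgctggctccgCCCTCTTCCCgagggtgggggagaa
Eef2: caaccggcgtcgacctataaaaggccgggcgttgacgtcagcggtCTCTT
Eef1b2: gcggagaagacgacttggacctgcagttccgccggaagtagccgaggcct
The run in Eef2 goes on past the end of the printed window, and Eef1b2 has no such run in its window. Of the 55 factors, 42 had a promoter entry in the RefSeq table, and 16 of these (38.1%) held a run, against 29.7% of all 27025 genes in the table. At IF 8 h the median log2 fold change was 0.09 for the 16 factors with a run and 0.16 for the 26 without, and at DC 8 h 0.07 and 0.23. The medians were 0.02 and 0.30 at DC 22 h, but 0.06 and 0.01 at IF 22 h, where those with a run were higher. Over all tested genes with a promoter entry the medians at DC 22 h were 0.02 with a run and 0.05 without.

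Eef1a1 had 4151, 3937 and 3716 CPM (counts per 1000000 after TMM normalisation) in the unstimulated libraries. With IF at 8 h it had 2455, 2604 and 2321, and with DC 2690, 2533 and 2758 at 8 h and 2435, 2145 and 2529 at 22 h, all below every control. At IF 22 h the values were 2580, 4043 and 3525, so that replicate 1 lay with the other stimulated libraries and replicates 2 and 3 with or near the controls. Its log2 fold change at 8 h was -0.68 ± 0.14 (SE) with IF (edgeR adjusted p = 0.00854) and -0.56 ± 0.14 with DC (0.0229). At 22 h it was -0.22 ± 0.14 with IF (0.417) and -0.73 ± 0.14 with DC (0.00442), and with IF 22 h replicate 1 alone it was -0.61 (0.101). The DC 8 h call was lost without unstimulated replicate 1 or 2 or DC 8 h replicate 1 or 2 (adjusted p 0.0688 to 0.0882), and with library size alone (-0.30, 0.13). Of the 60-base stretches at the 3′ ends of Eef1a1 transcripts, 60.5% also occur in 17 other annotated genes, so its reads can have been shared with copies of the gene.

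Eef1b2 was the one elongation factor below all controls in all 12 stimulated libraries. Its CPM was 5011, 5494 and 4993 in unstimulated cells, and after 8 h 3568, 3379 and 3521 with IF and 3727, 3224 and 3550 with DC. At 22 h it was 3380, 4080 and 4370 with IF and 3264, 2940 and 3230 with DC. With IF the log2 fold change was -0.57 ± 0.12 at 8 h (adjusted p = 0.00757) and -0.39 ± 0.12 at 22 h (0.0576), and with DC -0.56 ± 0.12 (0.00691) and -0.72 ± 0.12 (0.00119). At IF 22 h the DESeq2 test (0.00768) and its size factors in edgeR (0.0384) called it lower. With library size alone the 8 h values were -0.32 (adjusted p = 0.0552) and -0.30 (0.0765), past the threshold in neither comparison. Eef1b2 shares exonic bases with Ndufs1 on the opposite strand.

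Eef2 had 2476, 2808 and 2654 CPM in unstimulated cells and 1714, 1891 and 1525 at IF 8 h, with no overlap. Its values were 2029, 1764 and 2143 at DC 8 h and 1820, 1705 and 2266 at DC 22 h, again below every control. At IF 22 h they were 2307, 2720 and 2291, within or just below the range of the controls. For IF at 8 h the log2 fold change was -0.63 ± 0.14 (adjusted p = 0.0113), and the call was lost without IF 8 h replicate 3 (-0.56, 0.0640) and with library size alone (-0.39, 0.0682). At DC 8 h it was -0.42 ± 0.14 (0.0800) and at DC 22 h -0.46 ± 0.14 (0.0546), neither past the threshold in edgeR. DESeq2 called it lower in both (adjusted p = 0.0422 at DC 8 h), and edgeR did at DC 22 h without DC 22 h replicate 3 (0.0183).

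The eEF1 and eEF2 group has 5 members in the tables, with Eef1d and Eef1g, further subunits of the eEF1 exchange complex, beside the genes above. At 3 of the 4 comparisons all 5 had negative fold changes with TMM (range over the group -0.73 to -0.15), and at IF 22 h 4 of 5 did, but with library size alone Eef1g was positive in all 4 comparisons, Eef1d with DC at both times, and Eef2 at IF 22 h. Eef1a1 and Eef1b2 stayed negative in all 4 with either scaling. Eef1d (202 ± 19.5 CPM in unstimulated cells, SD, n = 3) and Eef1g (869 ± 29.5) passed the threshold in no comparison. As a share of all counts in a library, which uses no scaling factor, the group took 1.08% to 1.16% in unstimulated cells. With IF it took 0.840% to 0.915% at 8 h and 0.974% to 1.14% at 22 h, and with DC 0.887% to 0.982% and 0.867% to 0.940%. Only the IF 22 h range overlapped that of the controls. In bulk RNA, fewer cells with a transcript and less of it per cell cannot be told apart. Eef2k, the kinase that inhibits eEF2, had 13.2 ± 1.33 CPM in unstimulated cells and 7.61 ± 1.64 at DC 8 h (log2 fold change -0.78 ± 0.28, adjusted p = 0.108).

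**Figure D2:**
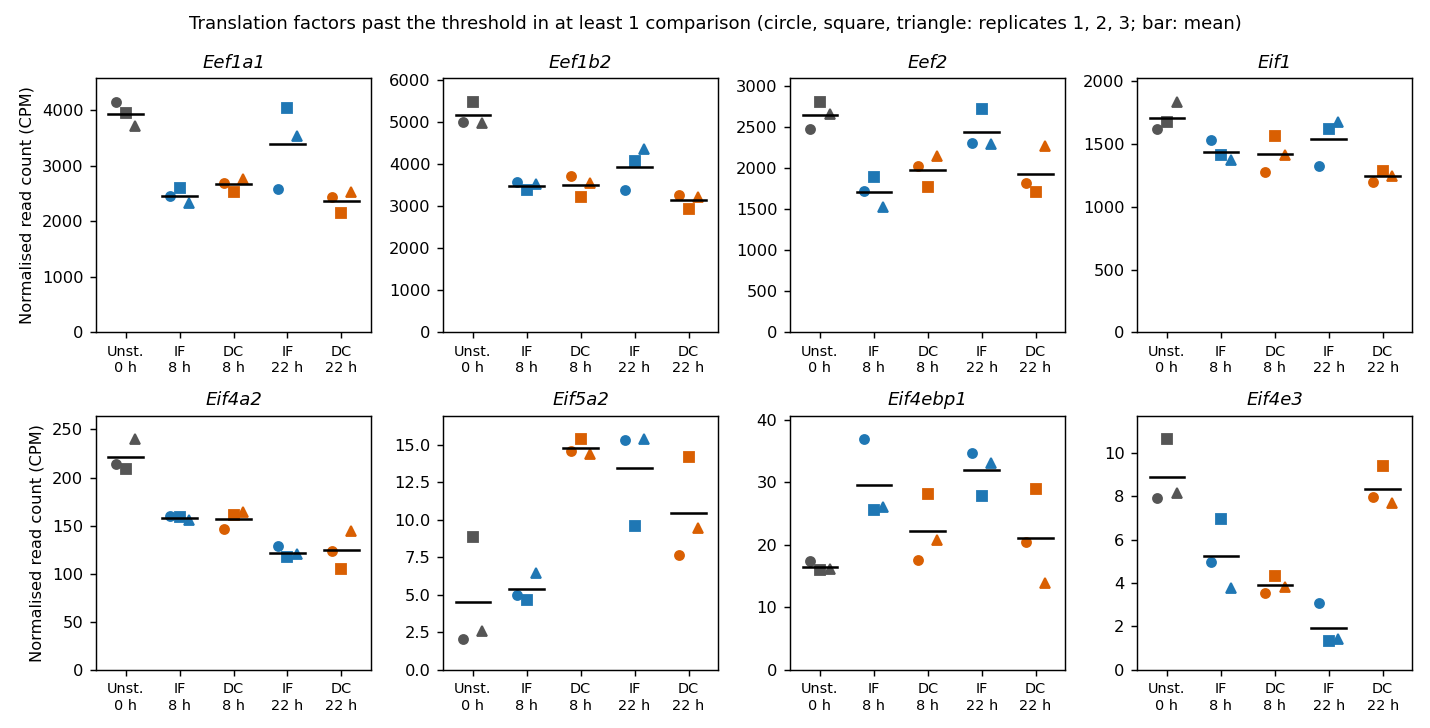
Normalised read counts (CPM, linear axes from 0) of the 8 factors past the threshold in at least 1 comparison, in unstimulated cells (grey) and with IF (blue) or DC (orange) at 8 h and 22 h; symbols are single libraries and bars are group means of 3. Eef1a1 in IF 22 h replicates 2 and 3 and Eef2 in all 3 IF 22 h libraries lie near the controls, and Eif5a2 in unstimulated replicate 2 lies above the other controls.

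Among the eIF4 cap-binding factors, the helicase Eif4a2 was lower at 22 h with both stimuli and the cap-binding protein Eif4e3 with IF. Eif4a2 (chr16:23107444-23114136, plus strand) had 214, 209 and 240 CPM in unstimulated cells. With IF it had 160, 159 and 155 at 8 h and 129, 117 and 120 at 22 h, and with DC 146, 161 and 164 at 8 h and 123, 105 and 144 at 22 h. Every stimulated library lay below every control, and every 22 h library lay below every 8 h library of the same stimulus. At 22 h its log2 fold change was -0.86 ± 0.15 with IF (adjusted p = 0.00202) and -0.83 ± 0.15 with DC (0.00222). At 8 h it was -0.48 ± 0.15 with IF (0.0541) and -0.49 ± 0.15 with DC (0.0518), short of the threshold in the edgeR test and past it with DESeq2 (0.00921 and 0.00635). Eif4a2 shares exonic bases with several small nucleolar RNAs on its strand and with Rfc4 on the opposite strand, and 14.8% of its 60-base 3′ stretches occur in 2 other genes.

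Eif4a1, the paralog with the same helicase role, passed the threshold in no comparison. It had 479, 481 and 502 CPM in unstimulated cells. With IF it had 686, 519 and 623 at 8 h and 459, 531 and 616 at 22 h, and with DC 537, 861 and 509 at 8 h and 509, 989 and 442 at 22 h. Its log2 fold changes were 0.14 to 0.41 in the 4 comparisons, with adjusted p from 0.370 to 0.827. Without replicate 2 of both DC groups they were 0.09 at DC 8 h (0.788) and -0.0135 at DC 22 h (0.975). The log2 ratio of Eif4a1 to Eif4a2 counts within a library, which no scaling changes, was 1.16, 1.20 and 1.06 in unstimulated cells. With IF it was 2.10, 1.71 and 2.00 at 8 h and 1.83, 2.18 and 2.36 at 22 h, and with DC 1.88, 2.42 and 1.63 at 8 h and 2.05, 3.24 and 1.62 at 22 h. All 12 stimulated libraries lay above all 3 controls. The ratio is given without a test, and its size in a single library also depends on how each transcript's 3′ end is captured.

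**Figure D3:**
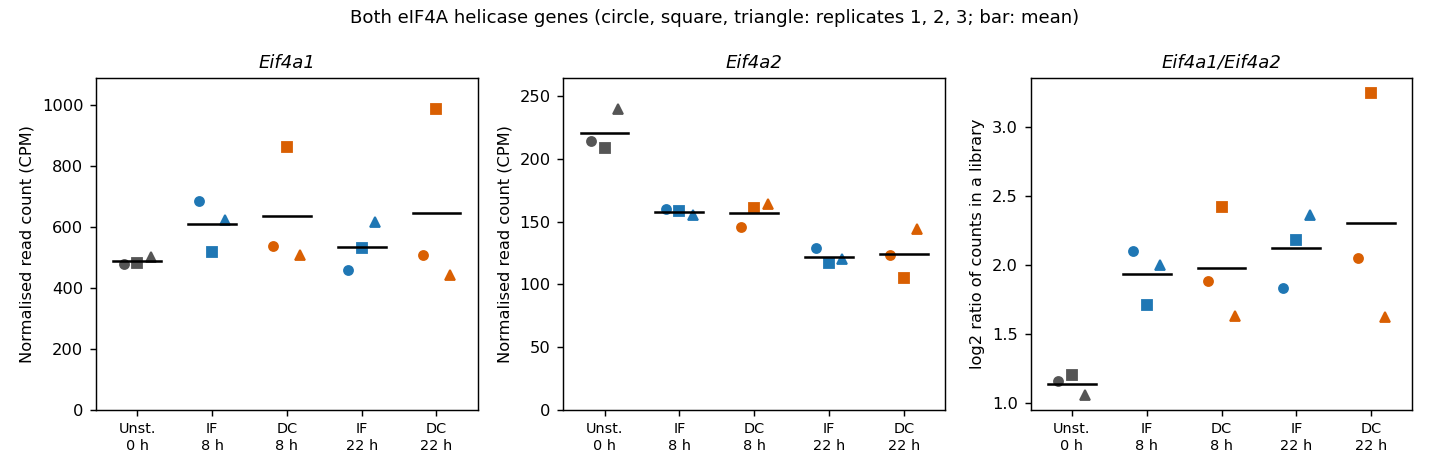
Normalised read counts (CPM, axes from 0) of Eif4a1 (left) and Eif4a2 (middle) and the log2 ratio of their counts (right) in each of the 15 libraries, by group; symbols are libraries and bars are group means. The 3 unstimulated ratios lie between 1.06 and 1.20 and the 12 stimulated ones between 1.62 and 3.24.

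Eif4e3 (an eIF4E family member, chr6:99625135-99666771, minus strand) was the one factor called between the stimuli in the edgeR test of all groups with the low-count filter and every library. It had 7.93, 10.7 and 8.15 CPM in unstimulated cells, 5.00, 6.96 and 3.75 at IF 8 h and 3.57, 4.35 and 3.82 at DC 8 h. At 22 h it had 3.10, 1.32 and 1.43 with IF and 7.97, 9.40 and 7.69 with DC. The 8 h libraries of both stimuli and the IF 22 h libraries thus lay below all controls, and the DC 22 h libraries lay within or just below their range. The log2 fold change at IF 22 h was -2.21 ± 0.40 against unstimulated cells (adjusted p = 0.00310) and -2.11 ± 0.39 against DC 22 h (0.00795). These are low counts, 26, 11 and 28 reads at IF 22 h, and the IF 22 h replicates with the lowest values are the libraries that stood apart. With IF 22 h replicate 1 alone the values were -1.52 (adjusted p = 0.281) and -1.43 (0.705), in a fit where the other groups give the spread of the single library. Eif4e3 shares exonic bases with Gm20696 on the same strand.

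The other 8 eIF4 genes passed no comparison. Eif4g2, an eIF4G relative that lacks the eIF4E binding site, had 813 ± 91.6 CPM in unstimulated cells and 622 ± 21.0 at IF 8 h. Eif4h, a cofactor of eIF4A, was the one factor above all controls in all 12 stimulated libraries, with 234 to 249 CPM in controls and 281 to 424 after stimulation. Its log2 fold change was 0.52 ± 0.16 at both DC 8 h (adjusted p = 0.0673) and DC 22 h (0.0653), short of the threshold, and with DESeq2 it passed in both (0.0247 and 0.0242). Without replicate 2 of both DC groups it was 0.34 (0.111) and 0.38 (0.0767) in edgeR. Of the 54 factors, 2 (3.7%; Eef1b2 and Eif4a2) lay below and 1 (1.85%) above all controls in every stimulated library, against 5.35% and 2.82% of all tested genes. The log2 count ratios of Eif4g1 to Eif4g3 overlapped between unstimulated cells and every stimulated group. The ratio of Eif4e, the main cap-binding protein, to Eif4e2 was -1.48 ± 0.21 (SD) in unstimulated cells, -0.80 ± 0.30 at DC 8 h and -0.99 ± 0.16 at IF 22 h, with no overlap there.

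The eIF4E inhibitors 4E-BP1 and 4E-BP2, which block the binding of eIF4G until mTORC1 phosphorylates them, are coded by Eif4ebp1, which rose at IF 22 h, and Eif4ebp2, which passed no comparison in edgeR with the low-count filter and all libraries. Eif4ebp1 had 17.3, 15.9 and 16.1 CPM in unstimulated cells, 36.9, 25.5 and 26.0 at IF 8 h and 34.6, 27.9 and 33.1 at IF 22 h. With DC it had 17.5, 28.2 and 20.7 at 8 h and 20.4, 29.0 and 13.8 at 22 h. All 6 IF libraries lay above all controls, and 5 of 6 DC libraries did. The log2 fold change at IF 22 h was 0.95 ± 0.27 (adjusted p = 0.0438), and at IF 8 h 0.85 ± 0.27 (0.0685), where DESeq2 called it (0.0412), as did edgeR with library size alone (0.0230) or with the other groups kept out (0.0322). The IF 22 h call was lost without any 1 of the 6 libraries compared (adjusted p 0.0784 to 0.139).

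Eif4ebp2 had 81.8, 111 and 138 CPM in unstimulated cells and 88.6, 11.6 and 4.13 at IF 22 h. Replicate 1 lay within the range of the controls, and replicates 2 and 3 lay below every one of the other 13 libraries, of which DC 8 h replicate 2 was lowest at 31.3. The log2 fold change at IF 22 h was -1.68 ± 0.68 (adjusted p = 0.162). At DC 8 h the values were 62.2, 31.3 and 64.9, all below the controls (-1.06 ± 0.66, 0.393), and it was called lower there without the low-count filter and in the fit of these groups alone. Without IF 22 h replicate 1 the IF 22 h value was -3.86 (3.26e-05), past the threshold, and with replicate 1 alone it was -0.31 (0.848). Eif4ebp3 and Eif4enif1, the eIF4E transporter, passed no comparison, and all 3′ stretches of Eif4ebp3 also occur in another annotated gene.

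The eIF5A factors help ribosomes through difficult peptide bonds and carry the amino acid hypusine. Eif5a2, the rarer form, had 2.06, 8.86 and 2.56 CPM in unstimulated cells (14, 49 and 11 counts), so that replicate 2 stood well above the other controls. It had 5.00, 4.64 and 6.43 at IF 8 h and 14.6, 15.4 and 14.4 at DC 8 h. At 22 h it had 15.4, 9.56 and 15.4 with IF and 7.63, 14.2 and 9.49 with DC. It was higher by 1.71 ± 0.44 on the log2 scale at DC 8 h (adjusted p = 0.0250) and 1.58 ± 0.44 at IF 22 h (0.0419). The DC 8 h call was lost without unstimulated replicate 1 or 3 or DC 8 h replicate 1 or 2 (0.0609 to 0.111), and the IF 22 h call without unstimulated replicate 1 or 3 or any IF 22 h replicate (0.0545 to 0.161). Without unstimulated replicate 2 the differences were larger, 2.69 at DC 8 h (0.00126) and 2.56 at IF 22 h (0.00214). At DC 22 h the difference was 1.21 on the log2 scale and did not pass (0.107), but it passed without unstimulated replicate 2 (2.20, 0.00570), with library size alone (1.54, 0.0321) and without the low-count filter (1.22, 0.0476).

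Eif5a had 3121, 2752 and 2707 CPM in unstimulated cells and 4354, 3252 and 3921 at IF 8 h. With DC at 8 h it had 3688, 6758 and 3135. After 22 h it had 2715, 3757 and 4301 with IF and 2851, 5536 and 2261 with DC. Both 8 h groups lay above all controls and both 22 h groups overlapped them, and the highest values were replicate 2 of each DC group. No comparison passed in the edgeR test of all groups with TMM and the low-count filter (log2 fold change 0.66 ± 0.30 at DC 8 h, adjusted p = 0.214). Without DC 8 h replicate 2 the value was 0.25 (0.731). It was called higher at DC 8 h without the low-count filter and at IF 8 h in the fit of these groups alone. The log2 count ratio of Eif5a to Eif5a2 overlapped the controls in every group.

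Of the eIF1 and eIF1A genes, which act in start codon selection, Eif1 alone passed with TMM and the low-count filter in the fit of all groups. Eif1, which guards against starts at the wrong codon, had 1615, 1677 and 1837 CPM in unstimulated cells and 1195, 1287 and 1242 at DC 22 h, with no overlap. The difference was -0.46 ± 0.13 on the log2 scale (adjusted p = 0.0331), and it lost the call without any 1 of the 6 libraries (0.0573 to 0.158), with library size alone, where it was -0.13 (0.470), without the low-count filter (0.105) and in the fit of these groups alone (0.0784). Eif1b, Eif1a and Eif1ax did not pass, but Eif1ax was called higher with library size alone in both 8 h comparisons and at DC 22 h. Eif1ax had 70.5 to 77.2 CPM in controls and 73.0 to 164 after stimulation, above all controls in every group but DC 22 h. The log2 count ratios of Eif1 to Eif1b and of Eif1a to Eif1ax overlapped the controls in every group.

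The eIF2 subunits, which carry the initiator tRNA, had positive fold changes in 11 of 12 values over the 4 comparisons. None passed in the edgeR test of all groups with TMM, the low-count filter and every library. Eif2s1, the subunit that stress kinases phosphorylate, had 117 to 127 CPM in unstimulated cells. With IF it had 173, 136 and 182 at 8 h and 156, 176 and 177 at 22 h, and with DC 160, 300 and 142 at 8 h and 168, 314 and 121 at 22 h. All stimulated libraries but DC 22 h replicate 3 lay above all controls. The log2 fold changes were 0.44 to 0.74 (adjusted p 0.153 to 0.408). Without replicate 2 of both DC groups they were 0.32 at DC 8 h (0.296) and 0.28 at DC 22 h (0.365). Eif2s1 was called higher in both DC comparisons with library size alone and without the low-count filter, and at DC 22 h without DC 22 h replicate 3 (0.0384). The negative value was that of Eif2s2 at IF 22 h, where replicates 2 and 3 had 126 and 118 CPM and replicate 1 had 238, and with replicate 1 alone it was 0.21. The 5 subunits of eIF2B, the exchange factor that recharges eIF2, passed no comparison, with log2 fold changes from -0.57 to 0.37, and neither did Eif2a and Eif2d.

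Of the 12 tested subunits of the eIF3 scaffold none passed in the edgeR test of all groups with TMM, the low-count filter and every library. Without the filter Eif3a was called higher at DC 22 h and lower with IF than DC at 22 h. The median log2 fold change of the 12 was 0.08 with IF at either time, 0.08 with DC at 8 h and 0.12 with DC at 22 h, where the median of all tested genes was 0.01 to 0.04. Eif3e, Eif3f, Eif3h and Eif3k lay below all controls at both 8 h comparisons, while Eif3c lay above them. Eif3h had 367, 447 and 452 CPM in unstimulated cells, and after 8 h 312, 339 and 336 with IF and 322, 255 and 353 with DC, a log2 fold change of -0.36 ± 0.16 (adjusted p = 0.186) and -0.45 ± 0.16 (0.108). Eif3c had 96.0, 93.8 and 90.5 CPM in unstimulated cells, and after 8 h 125, 117 and 121 with IF and 109, 172 and 118 with DC, 0.37 ± 0.19 (0.254) and 0.51 ± 0.19 (0.122) on the log2 scale. Without replicate 2 of both DC groups the second value was 0.27 (0.313). In edgeR with library size alone Eif3c and Eif3d were called higher at DC 8 h and Eif3a, Eif3c and Eif3m at DC 22 h. DESeq2 called Eif3h lower at DC 8 h (adjusted p = 0.0446) and DC 22 h (0.0496), Eif3k at DC 8 h (0.0434) and Eif3e at IF 22 h (0.0103). For Eif3e edgeR gave -0.45 (0.0737) at IF 22 h, and -0.27 (0.718) with IF 22 h replicate 1 alone.

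Eif5b, the GTPase of subunit joining (chr1:37998010-38055579, plus strand), had 249, 190 and 223 CPM in unstimulated cells, and after 8 h 398, 261 and 394 with IF and 273, 410 and 256 with DC. At 22 h it had 285, 60.7 and 66.9 with IF and 253, 416 and 286 with DC. IF 22 h replicates 2 and 3 were more than 2-fold below each of the other 13 libraries, and replicate 1 lay above the controls. The log2 fold change at IF 22 h was -0.68 ± 0.43 (adjusted p = 0.404), and with replicate 1 alone it was 0.37 (0.765). Of all tested genes 127 (1.17%) were more than 2-fold below the other 13 libraries in both of these replicates and 1 was above. Among the factors 3 (5.56%), Eif5b, Eif4ebp2 and Eif4e3, were below and 0 above. Eif2s2, Eif3e and Eif4g3 also lay below all other libraries in both, by less than 2-fold, which makes 6 factors (11.1%, against 5.06% of genes). Eef1g and Eif3k (3.7%, against 2.99% of genes) lay above all others in both. Both libraries belong to 1 group, so a profile of these libraries and the effect of IF at 22 h cannot be told apart. Without both, 1 library is left in the group and is assumed to vary like the other groups. In that fit 0 of the 54 factors and 99 genes in all passed at IF 22 h (4 and 658 with them), while the log2 fold change of Eif4a2 was -0.78, against -0.86 with all libraries.

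The IF and DC stimuli were next compared with each other at the same time. At 8 h none of the 54 factors passed in edgeR, where 0.665% of genes did. A single factor, Eif5a2, had an unadjusted p under 0.05 (8.27% of genes did), and DESeq2 called 0. Eif5a2 was lower with IF in all 3 libraries (log2 difference -1.46 ± 0.44, adjusted p = 0.211), and edgeR without the low-count filter called it lower with IF. Dendritic cell markers summed to 211 to 483 CPM at IF 8 h and 880 to 1266 at DC 8 h, and their part in any difference was not tested.

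At 22 h 1 of 54 factors, Eif4e3, passed between IF and DC in edgeR (1.85%), where 2.43% of genes did. DESeq2 also called Eef1a1, higher with IF, and Eif3e, lower with IF. With Eif4e3, 15 factors (27.8%) had an unadjusted p under 0.05 in edgeR, where 15.3% of genes did. These included Eef1a1, higher with IF by 0.51 ± 0.14 (adjusted p = 0.0704), and Eef1b2, Eef2 and Eef1g, higher by 0.31 to 0.34. Eef1a1 values did not overlap (2580 to 4043 CPM with IF and 2145 to 2529 with DC), but IF 22 h replicate 1 was close to the DC libraries. With IF 22 h replicate 1 alone the difference of Eef1a1 was 0.12. Without that replicate edgeR called 7 of 54 factors, where 759 of 11151 genes passed. These were Eef1a1 and Eef1b2, higher with IF, and Eif2s2, Eif3a, Eif4e3, Eif4ebp2 and Eif5b, lower. Without IF 22 h replicate 2 or 3 it called 0 factors. Dendritic cell markers summed to 391 to 619 CPM with IF and 512 to 693 with DC at this time.

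Between 8 h and 22 h none of the 54 factors passed with IF, where 1.12% of genes passed, or with DC, where 0.48% did. With IF 14 factors (25.9%) had an unadjusted p under 0.05, against 15% of genes, and DESeq2 called 2, Eef2 and Eif4e3. The 14 included all 6 factors that lay below all other libraries in IF 22 h replicates 2 and 3. Eef1g and Eif3k, above all others there, were also among the 14. In edgeR 8 factors and 541 of 11151 genes passed without IF 22 h replicate 1, and 0 factors without replicate 2 or 3. The part of these libraries was not tested. Eef2 was higher at 22 h by 0.51 ± 0.14 (adjusted p = 0.0906) without overlap. With DC 2 (3.7%) had an unadjusted p under 0.05 (9.03% of genes did), Eif4e3 and Eif4a2, and DESeq2 called 0. Eif4a2 was lower at 22 h with both stimuli, by -0.38 ± 0.15 with IF (0.241) and -0.34 ± 0.15 with DC (0.480). The test of whether the IF and DC difference itself changed from 8 h to 22 h called 0 of 54 factors, and 0.0% of genes. Of the factors 8 (14.8%) had an unadjusted p under 0.05 in that test, against 7.92% of genes, and DESeq2 called 1, Eif4e3, whose estimate was -2.52 ± 0.55 in edgeR (adjusted p = 0.178). The 8 included Eif2s2, Eif3e, Eif4e3, Eif4ebp2 and Eif5b, which lay below all other libraries in IF 22 h replicates 2 and 3.

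Replicate 2 of both DC groups held many initiation factors at their highest level. In these 2 libraries 22 of the 54 factors (40.7%) lay above all 13 other libraries, against 6.92% of all tested genes. They included 4 of 10 eIF4 genes, 5 of 12 tested eIF3 genes, all 3 of Eif5, Eif5b and Eif6, 3 of 5 eIF2B genes, and Eif2s1, Eif5a and Eef1e1. None of the 5 eEF1 and eEF2 genes was among them, and 3 factors (5.56%, against 5.78% of genes), Eef1b2, Eif3f and Eif3h, lay below all others in both. The median of the 54 factors against the controls was 0.34 and 0.43 on the log2 scale in these libraries and -0.11 to -0.01 in the other 4 DC libraries, while the median of all genes was 0.02 to 0.05 in all 6. This pair of libraries was singled out after the values were seen, so the counts are a description with no test. Whether the shared number marks a shared animal or a shared day is not stated. Without both libraries 4 factors passed at DC 8 h (Eif4a2 joining the 3 above) and 4 at DC 22 h.

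The promoters of these factors were searched for CACGTG, the E-box bound by MYC and related proteins, because MYC is known to rise in activated T cells and to act on genes of translation. The motif reads the same on both strands. Within 250 bases before to 50 bases after the RefSeq start, 12 of 42 factors (28.6%) held it, against 8.1% of 27025 genes. That background includes genes that were not tested here. Among tested genes with a promoter entry, 992 held the motif and 7173 did not, a larger share than over all 27025. Among the 22 factors that were highest in replicate 2 of both DC groups, 6 of the 19 with a promoter entry held it, as did 6 of 23 among the other factors. The 4 factors below are examples, namely the helicase gene Eif4a1, its cofactor Eif4h, the cap-binding Eif4e, and Eif5a. All 4 come from the 22 factors highest in replicate 2 of both DC groups. The holders of the motif outside that set, not shown, were Eef2, Eef2k, Eif1b, Eif3f, Eif3k and Eif5a2. Each line gives 20 bases on either side of the motif, which is in capitals (GRCm38.p6, on the strand of the gene). The positions are chr11:69672587-69672632 on the minus strand for Eif4a1, chr3:138527184-138527229 on the plus strand for Eif4e, chr5:134639480-134639525 on the minus strand for Eif4h and chr11:69920783-69920828 on the minus strand for Eif5a.
Eif4a1: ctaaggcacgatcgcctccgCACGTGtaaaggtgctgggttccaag
Eif4e: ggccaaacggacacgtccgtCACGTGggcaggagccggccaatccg
Eif4h: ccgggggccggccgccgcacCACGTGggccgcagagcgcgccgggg
Eif5a: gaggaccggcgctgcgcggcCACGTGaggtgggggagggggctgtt
The median log2 fold change of the 12 factors with the motif was 0.12 and 0.01 with IF and 0.19 and 0.13 with DC, at 8 h and 22 h in turn. For the 30 factors without it the medians were 0.11 and 0.03 with IF and 0.12 and 0.14 with DC. A match describes letters in a window and does not show that a protein binds there.

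Genes that act on these factors changed more than the factors themselves in a few cases. Of the 8 tested kinases and phosphatase subunits of eIF2, Ppp1r15a (GADD34, which directs a phosphatase to eIF2) fell in all 4 comparisons. It had 325, 354 and 438 CPM in unstimulated cells, 34.2 to 66.1 in the 8 h libraries and 12.9 to 22.9 in the 22 h libraries, with no overlap between the 3 times. At 8 h the log2 fold change was -2.94 ± 0.28 with IF (adjusted p = 9.21e-06) and -2.77 ± 0.28 with DC (1.66e-05), and at 22 h -4.47 ± 0.30 (2.14e-07) and -4.21 ± 0.30 (3.23e-07). Impact, an inhibitor of the eIF2 kinase GCN2, rose at IF 8 h (0.93 ± 0.26, 0.0409) and IF 22 h (0.96 ± 0.26, 0.0367). Eif2ak2 (PKR) fell at IF 22 h (-1.99 ± 0.36, 0.00321), from 10.7 to 12.9 CPM in controls to 4.05, 2.75 and 2.14, and was lower with IF than DC at that time (-2.00 ± 0.36, 0.00565). The 2 lowest values are those of the IF 22 h libraries that stood apart, and with replicate 1 alone the values were -1.52 (0.269) and -1.54 (0.589). The difference from DC also fell short when IF 22 h replicate 3 was left out (0.0515) or the fit held these groups alone (0.0532).

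Of 5 tested genes of termination and recycling, Hbs1l, which rescues stalled ribosomes, rose at IF 8 h (1.16 ± 0.17, adjusted p = 0.000483) and IF 22 h (1.08 ± 0.17, 0.000986) and was higher with IF than DC at 22 h (0.71 ± 0.17, 0.0304). Of 6 tested enzymes of the hypusine and diphthamide modifications of eIF5A and eEF2, Dph5 fell at IF 8 h (-1.27 ± 0.21, 0.00163), DC 8 h (-0.74 ± 0.21, 0.0378) and IF 22 h (-1.12 ± 0.21, 0.00340). Of 13 genes of mTORC1, S6 kinase and MNK signalling, Pdcd4, an inhibitor of eIF4A, fell at DC 22 h (-1.26 ± 0.31, 0.0181), with 214 to 264 CPM in controls and 123, 52.3 and 129 at DC 22 h. Of 10 genes of poly(A) binding, Pabpc1 fell at IF 8 h (-0.45 ± 0.12, 0.0316). Of 22 cytosolic tRNA synthetases, 3 and 0 rose with IF (8 h and 22 h) and 2 and 1 with DC. At 8 h these were 13.6% with IF and 9.09% with DC, where 3.04% and 2.75% of genes rose, and at 22 h 0.0% and 4.55%, where 2.63% and 3.41% rose. Among them was Wars, higher by 1.77 ± 0.39 at IF 8 h (0.0111) and 1.62 ± 0.39 at DC 8 h (0.0171). It had 28.7 to 38.6 CPM in controls and 67.3, 152 and 76.9 at DC 8 h, highest in replicate 2, which stood apart. Of the related genes, the calls of Eif2ak2 alone were followed through the other settings.

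The pooled within-group SD of log2 CPM over the 54 factors ran from 0.09 to 1.03 with a median of 0.29.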

How the data were processed

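Bulk CEL-seq libraries of 15 samples in 5 groups of 3 were used. The deposited tables hold raw counts per gene and library, whole numbers without normalization. BWA and the build mm10 are named per the submitters' processing notes; the counting program, annotation, use of strand and use of molecular identifiers are not given in the sources used here. Positions and shared exonic bases come from the GENCODE vM21 annotation of the same build, and promoter sequences from RefSeq (GRCm38.p6).

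Counts were analysed with edgeR 4.0.16 in R 4.3.3. Genes were kept by filterByExpr (minimum count 10, minimum total 15), which left 10831 of 17493, and the untested genes held at most 0.124% of the counts of a library. After TMM scaling, a quasi-likelihood model of 5 group means was fitted to all 15 libraries with the prior count of fold changes at 0.125. Tests were two-sided, adjusted by Benjamini-Hochberg over all tested genes in each of 9 comparisons, with a threshold of 0.05. CPM values use the TMM-scaled library totals, except marker sums, which use plain totals. The log2 ratios of paralog counts use a pseudocount of 0.5. Alternatives were DESeq2 1.42.0 (test or size factors), library size alone, no low-count filter, only the groups compared, a replicate block, and leaving out libraries. The fit was tested on simulated counts.

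Labels number the replicates from 1 to 3 as "Don" without saying what a number shares, so p-values measure the spread between these libraries, which may be in part technical. No 2 replicates agreed within counting noise (chi-square per degree of freedom 9.5 to 98.1). The genes named are those past the threshold in any comparison, the member with the highest mean in each role group, the paralog pairs, Eif5b, members under the filter, and in each related list at most the 5 genes past the threshold with the smallest p. Other members named, the promoter motifs and the pair of DC replicates 2 were chosen after their values were seen. Eif2s3y is not analysed here. The members and lists were chosen with earlier results of these data known.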

Additional observations from a re-analysis of the deposited data

Results flagged for a closer look

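Eif4e3 is set out here because the effect of immunofilaments differed from that of dendritic cells at 22 h in the direct test, with a log2 difference of -2.11 ± 0.39 (edgeR adjusted p = 0.00795). It had 26, 11 and 28 reads with IF and 70, 85 and 90 with DC, and all 3 IF libraries lay below all 3 DC libraries. The call was lost without IF 22 h replicate 2 (adjusted p = 0.0554) or replicate 3 (0.0633), the libraries with low mitochondrial ribosomal RNA, and when the other 3 groups were kept out of the fit (0.0749). With IF 22 h replicate 1 alone the difference was -1.43 (0.705).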

How the results depend on the processing

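The counts of factors past the threshold moved by more than 1.5 times under several settings. With library size alone they were 5 at IF 8 h, 6 at DC 8 h and 15 at DC 22 h, where 1113, 1079 and 1586 genes passed in all. In the edgeR fit with TMM the genes numbered 840, 739 and 840 and the factors 3, 3 and 4. With the DESeq2 test the factors numbered 5, 9 and 7 in the same comparisons, where 1269, 1175 and 1267 genes passed in all. DESeq2 also called 3 factors and 563 genes for IF against DC at 22 h (main 1 and 263). It called 2 and 366 for IF at 22 h against 8 h (main 0 and 121), and 1 and 40 for the interaction (main 0 for both). Without the low-count filter they were 9 at DC 8 h, 8 at DC 22 h, 1 for IF against DC at 8 h, 6 for the same at 22 h, 4 for IF and 1 for DC at 22 h against 8 h, and 2 for the interaction. With only the groups compared the factors numbered 11 at IF 8 h (1299 of 9454 genes) and 0 for IF against DC at 22 h (70 of 10189 genes). Without IF 22 h replicates 2 and 3 they were 0 at IF 22 h and 0 for IF against DC at 22 h, and at IF 22 h Eif5b turned from -0.68 to 0.37 and Eif2s2 from -0.35 to 0.21; the single library left is assumed to vary like the other groups, so the lost calls also reflect fewer samples. Eif4a1 at DC 22 h (0.41) was -0.0137 without DC 22 h replicate 2 and -0.0135 without replicate 2 of both DC groups (chosen after seeing the data), and 0.62 without replicate 3. Leaving out 1 library at a time gave 1 (without unstimulated replicate 1 or DC 8 h replicate 1 or 2) to 3 at DC 8 h, 2 (without unstimulated replicate 1 or 3 or IF 22 h replicate 2 or 3) to 5 at IF 22 h, and 3 to 7 at DC 22 h (7 without DC 22 h replicate 3). It gave 0 (without IF 22 h replicate 2 or 3) to 7 (without IF 22 h replicate 1) for IF against DC at 22 h, 0 to 8 for IF at 22 h against 8 h and 0 to 5 for the interaction, both highest without IF 22 h replicate 1. Genes past the threshold in these fits ran from 404 to 665 at DC 8 h, 283 to 947 at IF 22 h and 454 to 984 at DC 22 h. They ran from 90 to 759 for IF against DC at 22 h, 24 to 541 for IF at 22 h against 8 h and 0 to 279 for the interaction. The cause of these moves was not tested. Of 220 alternatives of the 17 results past the threshold (15 of factors and 2 of Eif2ak2), 174 stayed past it in the same direction, 46 fell short and 0 reversed. Replicate numbers were not taken as pairing, since 4 of 30 same-number pairs correlated above 0.1 (r -0.19 to 0.40), as did 5 of 60 with different numbers (at most 0.21); 9 of 15 libraries correlated best with their own number, a hint from the data and not the design. With the replicate number as a block the counts were 3, 3, 4 and 4 for IF 8 h, DC 8 h, IF 22 h and DC 22 h, and 0, 1, 0, 0 and 0 in the other comparisons, the same as without it. Eif5a2 and Eif4e3 rest on few reads (11 to 301 and 11 to 90 in a library), which limits their precision.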

Other observations

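Initiation factors other than Eif5a took 0.732% to 0.771% of counts in unstimulated libraries and 0.830% to 1.17% in the 12 stimulated ones, with no overlap. These shares are of raw totals, on which the median of all tested genes also lay 0.22 to 0.37 (log2) above the unstimulated cells.

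Eef1e1, named as an elongation factor and known as a component of the multi-tRNA synthetase complex, had 26.9 ± 7.20 CPM (SD, n = 3) in unstimulated cells and 41.1, 130 and 26.8 at DC 22 h. The high library is replicate 2, and the log2 fold change of 1.29 ± 0.50 did not pass (edgeR adjusted p = 0.136).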
